A study of Mus musculus with 8 samples.

Results

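The trophectoderm is the outer epithelium of the blastocyst, and 9 of its genes were followed here at a stage well before it forms, in mouse 2-cell embryos with and without the transcription factor gene Dux. The 9 genes, Id2, Gata2, Gata3, Tead4, Dab2, Krt8, Krt18, Cdx2 and Atp1b1, were looked up by symbol in the gene table, which holds 13101 genes. Of them 7 had a row, and Krt8 and Cdx2, which had none, were not analysed here. The lowest mean scaled count of any row in the table was 25.01.

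Trophectoderm fate is set when outer cells of the morula become polarised. Polarity restrains the Hippo kinases, so that YAP1 and its relative TAZ enter the nucleus and act with the DNA-binding factor TEAD4 to switch on genes such as Cdx2 and Gata3. Keratins, tight junctions and the sodium-potassium pump then make the outer layer a sealed epithelium that fills the blastocoel with fluid. A 2-cell embryo has no such epithelium, and its transcripts come from the oocyte or from the first waves of zygotic transcription.

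Poly(A) RNA was sequenced from 8 pools of 12 to 18 embryos of the C57BL/6 background, collected from timed matings, with 4 wild type pools (WT) and 4 pools labelled Dux KO. The labels name no allele of Dux. Nothing in them tells if pools of 1 group had different parents, so each p-value covers only the variation among pools, which may be technical. Pools carry the replicate numbers of the labels and are written below as WT pools 1 to 4 and KO pools 1 to 4. DUX is known to activate 2-cell-stage genes and the retrovirus MERVL, and the comparison asks which transcripts change when it is lost. No row of the gene table carried Dux itself. MERVL-int, the internal part of MERVL, stood at 11360 to 16381 FPM (fragments scaled to library size) in WT and 4548 to 6050 FPM in Dux KO.

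Whole reads recovered from the deposited values came to 12343369 to 14548526 per pool. Embryo and oocyte genes marked every pool, with Zp3 at 63.5 to 217 FPKM (fragments scaled to transcript length and library size), Dppa3 at 3158 to 5665 FPKM and Zfp352 at 34.1 to 71.9 FPKM. Of the defining markers of the trophectoderm, Cdx2, Krt8, Eomes and Elf5 had no row. The 9 genes are thus a list known from a later lineage and do not mark a cell population in these pools. Fewer cells and less RNA per cell cannot be told apart in pooled embryos.

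Of the 7 genes with a row, 4 rose in Dux KO, 1 fell and 2 did not pass the test (limma on log2(FPKM + 1), Benjamini-Hochberg adjusted p under 0.05 over the 12434 genes whose mean over all pools reached 0.5 FPKM). Id2, Dab2, Gata2 and Gata3 rose, Tead4 fell, and Krt18 and Atp1b1 did not pass. Of all genes tested, 33.6% passed in either direction, 15.5% as higher and 18.1% as lower. The share among these genes was not tested, and Gata2 entered the test only through its Dux KO level, since its WT mean of 0.262 FPKM lies under that minimum. In WT the order of the levels was Id2, Atp1b1, Tead4, Dab2, Krt18, Gata3 and Gata2, and the ranges of Atp1b1 and Tead4 and those of Dab2 and Krt18 overlapped, while the other neighbours did not. In Dux KO Dab2 and Krt18 stood above Tead4 by their means, and of neighbours in the order only Id2 and Atp1b1, and Tead4 and Gata3, did not overlap.

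**Figure D1:**
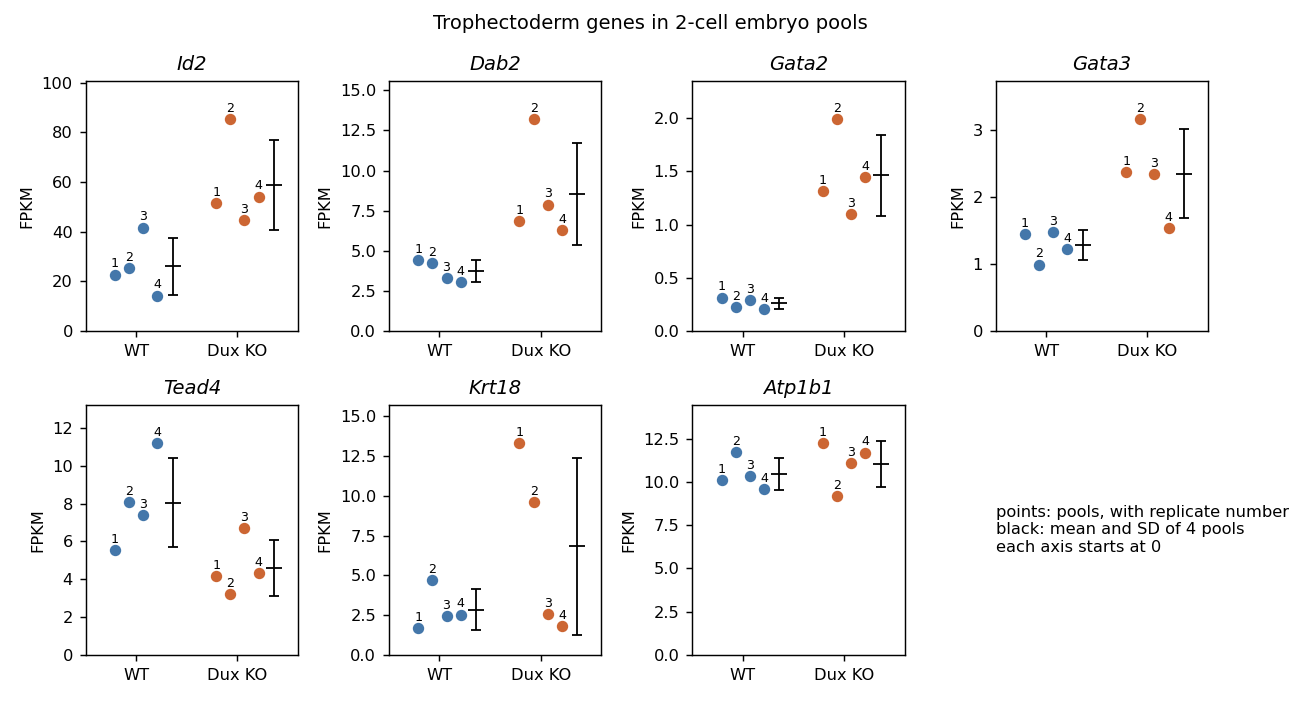
FPKM of the 7 genes in each pool, with the replicate number beside each point and the mean and SD of 4 pools in black; each vertical axis starts at 0. Id2, Dab2, Gata2 and Gata3 have no KO pool at or below a WT pool, and Krt18 is high only in KO pools 1 and 2 (13.3 and 9.60 FPKM).

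The sequences around the starts of the genes that rose are shown for Id2, the most abundant, and for Gata2 and Dab2, whose windows hold a match to a motif of the TEAD or GATA factors among these genes. Each is 300 bases, from 250 bases before to 50 after a RefSeq start, read 5′ to 3′ on the gene's strand (GRCm38.p6); capitals mark a TEAD motif, spelled GGAATG, or a motif of the zinc finger factors GATA2 and GATA3, spelled AGATAA, in either direction.
Id2 (chr12:25096043-25096342, minus strand): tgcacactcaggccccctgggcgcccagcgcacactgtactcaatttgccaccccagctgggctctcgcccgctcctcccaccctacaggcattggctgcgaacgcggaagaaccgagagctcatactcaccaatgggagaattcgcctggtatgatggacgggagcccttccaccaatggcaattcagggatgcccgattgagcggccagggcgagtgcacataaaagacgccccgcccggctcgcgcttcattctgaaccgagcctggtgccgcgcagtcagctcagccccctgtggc
Gata2 (chr6:88198414-88198713, plus strand): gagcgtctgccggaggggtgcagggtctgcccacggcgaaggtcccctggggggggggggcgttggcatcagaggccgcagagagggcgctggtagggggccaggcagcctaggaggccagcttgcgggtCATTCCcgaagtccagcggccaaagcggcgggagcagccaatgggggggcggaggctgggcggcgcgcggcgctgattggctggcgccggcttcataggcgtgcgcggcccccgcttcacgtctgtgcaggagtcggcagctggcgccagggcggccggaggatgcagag
Dab2 (chr15:6299539-6299838, plus strand): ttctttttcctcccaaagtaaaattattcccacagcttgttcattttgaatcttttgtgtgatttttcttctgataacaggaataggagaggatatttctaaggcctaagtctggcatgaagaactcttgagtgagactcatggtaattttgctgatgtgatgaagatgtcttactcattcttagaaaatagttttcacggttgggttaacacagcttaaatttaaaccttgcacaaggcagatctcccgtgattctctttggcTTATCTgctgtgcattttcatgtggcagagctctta
Dab2 (chr15:6386498-6386797, plus strand): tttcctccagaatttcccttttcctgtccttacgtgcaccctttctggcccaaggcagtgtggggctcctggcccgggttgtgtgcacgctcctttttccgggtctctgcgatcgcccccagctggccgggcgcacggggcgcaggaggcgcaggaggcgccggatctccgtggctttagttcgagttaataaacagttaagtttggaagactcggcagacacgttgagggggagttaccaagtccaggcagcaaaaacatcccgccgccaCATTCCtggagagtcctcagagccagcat

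Windows were found for 6 of the 7 genes, 8 in all, and Tead4 had none. The 2 motifs do not overlap each other in these windows. GGAATG, searched on both strands, occurred in 2 of the 8, the second Gata2 start and the second Dab2 start, and in 14.7% of all 32851 windows. AGATAA, also on both strands, occurred in 1 of the 8, the first Dab2 start, and in 11.2% of all windows. The first Dab2 start, with 2 CpG pairs and 37.7% G and C, differed in base composition from the second, with 19 CpG pairs and 59.3%; the median window held 7 CpG pairs and 52.7%. The FPKM values do not tell which start was used.

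TEAD4 binds DNA as the partner of YAP1 and is required for the trophectoderm. Tead4, on chromosome 6 at 128224288 to 128300823 (GRCm38, minus strand), stood at 5.54, 8.06, 7.41 and 11.2 FPKM in WT pools 1 to 4 and at 4.17, 3.20, 6.71 and 4.33 FPKM in KO pools 1 to 4. The groups overlapped in 1 place, since KO pool 3 lay above WT pool 1. From 8.05 ± 2.36 to 4.60 ± 1.49 FPKM (SD, n = 4), Tead4 fell by 0.69 on the log2(FPKM + 1) scale (95% interval -1.198 to -0.19, limma adjusted p = 0.0389). The call ended on leaving out any 1 of WT pools 2, 3 and 4 (limma adjusted p = 0.0692, 0.0613 and 0.110) or of KO pools 1, 2 and 4 (0.0876, 0.0978 and 0.0675).

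GATA2 and GATA3 are zinc finger factors that bind GATA motifs, and both act in trophoblast. Gata2, on chromosome 6 at 88193891 to 88207032 (plus strand), was nearly silent in WT, at 0.317, 0.227, 0.292 and 0.211 FPKM in pools 1 to 4. In Dux KO it stood at 1.31, 1.99, 1.10 and 1.45 FPKM. All 4 Dux KO pools lay above all WT pools, and 15.0% of all genes tested were higher without overlap. These levels rest on 15 to 21 reads in the WT pools and 88 to 169 in the Dux KO pools. The exact Poisson interval of the highest WT pool was 13.0 to 32.1 reads and that of the lowest Dux KO pool 70.6 to 108 reads, and covers counting error only. Gata2 rose from 0.262 ± 0.0508 to 1.46 ± 0.380 FPKM, a ratio of 5.59, with a log2(FPKM + 1) difference of 0.95 (95% interval 0.67 to 1.24, limma adjusted p = 0.00207). The added 1 FPKM understates so low a gene, and edgeR on recovered reads gave a log2 fold change of 2.51 (edgeR adjusted p = 0.000868; edgeR called 34.1% of all genes).

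Gata3, on chromosome 2 at 9857078 to 9890034 (minus strand), is a direct target of TEAD4 and YAP1 in the later embryo. It stood at 1.45, 0.995, 1.48 and 1.22 FPKM in the WT pools and 2.37, 3.17, 2.34 and 1.53 FPKM in Dux KO, and the lowest of the KO pools, pool 4, lay just above WT pool 3. Gata3 rose from 1.29 ± 0.227 to 2.35 ± 0.666 FPKM (log2 difference 0.53, 95% interval 0.16 to 0.91, limma adjusted p = 0.0352). Its call ended on leaving out WT pool 1, 2 or 4 (limma adjusted p = 0.0529, 0.0800 and 0.0773) or KO pool 1, 2 or 3 (0.0779, 0.0890 and 0.0634), and with quantile normalization (0.0708). Exons of 2 genes, Gm13256 on the opposite strand and 9230102O04Rik on the same strand, overlap those of Gata3. Neither has a row of its own, and the strand setting of the counting is not given in the sources used here.

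ID2 lacks a DNA-binding domain and holds E proteins in inactive pairs; its gene is among the first to mark outer cells of the morula. Id2, on chromosome 12 at 25093799 to 25097140 (minus strand), was the most abundant of the 7, above 82.8% of the genes of the table in WT or level with them. It stood at 22.8, 25.5, 41.6 and 14.3 FPKM in WT pools 1 to 4 and at 51.4, 85.3, 44.8 and 54.1 FPKM in Dux KO. All Dux KO pools lay above all WT pools, though KO pool 3 and WT pool 3 stood close. Id2 rose from 26.04 ± 11.4 to 58.9 ± 18.0 FPKM, a ratio of 2.26 (log2 difference 1.20, 95% interval 0.57 to 1.83, limma adjusted p = 0.0113).

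DAB2 is an endocytic adaptor that links receptors of the LDL receptor family to clathrin, known from trophectoderm and visceral endoderm. Dab2, on chromosome 15 at 6299788 to 6440712 (plus strand), stood at 4.41, 4.22, 3.31 and 3.05 FPKM in the WT pools and 6.84, 13.2, 7.88 and 6.31 FPKM in Dux KO. The groups did not overlap, and KO pool 2 lay far above the other Dux KO pools, with 1524 reads against 646 to 858. Dab2 rose from 3.75 ± 0.666 to 8.56 ± 3.16 FPKM (log2 difference 0.97, 95% interval 0.49 to 1.45, limma adjusted p = 0.00914). Without that pool its log2 difference was 0.76 (limma adjusted p = 0.0143). Gm18888, a processed pseudogene on the opposite strand that has no row, overlaps an exon of Dab2.

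**Figure D2:**
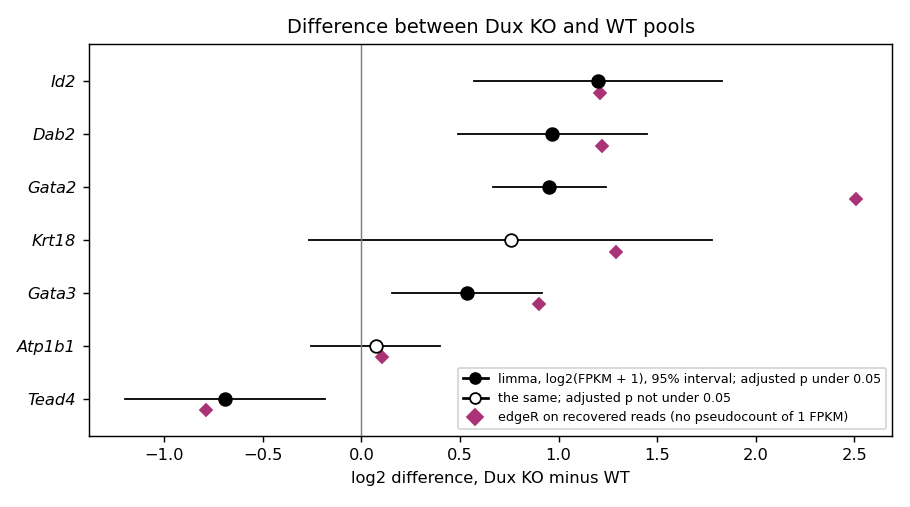
Log2 difference between Dux KO and WT for the 7 genes, from limma on log2(FPKM + 1) with its 95% interval (circles, filled where the adjusted p is under 0.05), and from edgeR on recovered reads (diamonds). The 2 scales part most for Gata2, at 0.95 and 2.51, and Tead4 alone lies wholly below 0.

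Keratin 18 pairs with keratin 8 in the filaments of simple epithelia. Krt18, on chromosome 15 at 102028180 to 102032027 (plus strand), stood at 1.699, 4.71, 2.43 and 2.54 FPKM in WT pools 1 to 4. KO pools 1 and 2 had 13.3 and 9.60 FPKM, while KO pools 3 and 4, with 2.58 and 1.80 FPKM, lay within the WT range. Only 2 of the 4 Dux KO pools were thus high, with 278 and 217 reads against 30 to 94 reads in the other 6 pools. The group values of 2.84 ± 1.30 and 6.83 ± 5.58 FPKM did not pass (log2 difference 0.76, 95% interval -0.26 to 1.78, limma adjusted p = 0.218). With pools 3 and 4 as the only KO pools the difference was -0.22, and with pools 1 and 2 as the only ones it was 1.74. The pools were split here by their Krt18 level, so these are descriptions with no test. DESeq2 on recovered reads of all 8 pools put Krt18 past the threshold (DESeq2 adjusted p = 0.0419, with 38.3% of all genes called) and edgeR did not (edgeR adjusted p = 0.0808). Krt8, its partner, had no row.

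Some markers of oviduct and uterine epithelium, a tissue that also makes Krt18 and whose oviduct part holds embryos of this stage, were high in the same pools as Krt18. Of 20 such markers 12 had a row, and 6 of them (Krt19, Cldn3, Ltf, Ovgp1, Ehf and Wfdc2) had their top values in KO pools 1 and 2, a pattern that 12.0% of all genes tested showed. Ovgp1 in KO pool 1, at 11.7 FPKM, barely passed WT pool 3, at 11.5 FPKM. The other markers with a row did not show the pattern. Among them Epcam was lowest of all 8 pools in KO pool 2, at 65.2 FPKM, and Esr1 was highest in KO pool 4, at 1.88 FPKM. Elf3 in KO pool 1, at 6.80 FPKM, lay within the WT range of 4.56 to 9.17 FPKM. Of the 11 markers tested, Cldn7, Esr1, Ltf and Cdh1 rose and Epcam fell, 45.5% against the 33.6% of all genes called. Krt19, another keratin of simple epithelia, had 4.60 and 3.77 FPKM in KO pools 1 and 2, 0.727 and 0.619 FPKM in KO pools 3 and 4 and 0.439 to 2.17 FPKM in WT. Wfdc2, a secreted protein of the reproductive tract, had 10.03 and 10.3 FPKM in those 2 pools, 1.06 and 1.76 FPKM in the other 2 KO pools and 0 to 5.75 FPKM in WT, where WT pool 3 was listed at 0. The summed level of the 12 markers was 163 to 181 FPKM in WT and 139 to 191 FPKM in Dux KO, of which Epcam made 65.2 to 143 FPKM. Pax8, Foxj1, Krt7, Sox17 and Pgr had no row. The part of such cells in the Krt18 values was not tested.

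**Figure D3:**
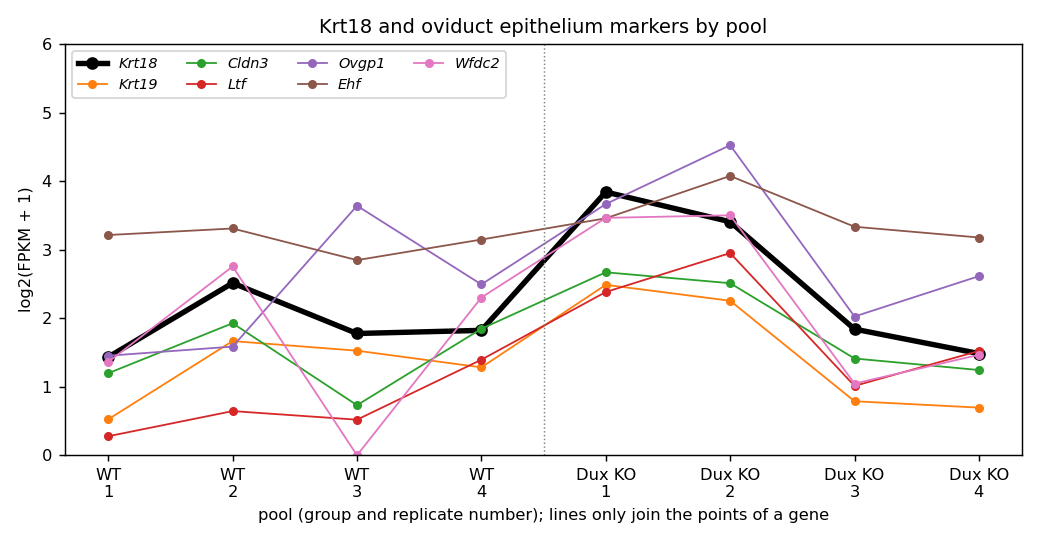
Krt18 (thick black) and 6 oviduct epithelium markers in each pool as log2(FPKM + 1); the 6 were drawn because they were highest in KO pools 1 and 2, and lines only join the points of a gene. Krt18, Krt19, Cldn3, Ltf, Ovgp1 and Wfdc2 drop to the WT range or below in KO pools 3 and 4 except Ltf in KO pool 4, at 1.87 FPKM against 1.63 FPKM in the highest WT pool. Ehf in KO pool 3, at 9.08 FPKM, stays above its highest WT pool, at 8.91 FPKM. Ovgp1 in WT pool 3, at 11.5 FPKM, stands close to KO pool 1, at 11.7 FPKM.

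ATP1B1 is the beta subunit of the sodium-potassium pump, which drives fluid into the blastocoel. Atp1b1, on chromosome 1 at 164437109 to 164458355 (minus strand), was the steadiest of the 7, at 10.1, 11.7, 10.3 and 9.59 FPKM in the WT pools and 12.3, 9.19, 11.1 and 11.7 FPKM in Dux KO. Its highest and its lowest pool were both Dux KO pools. The means of 10.4 ± 0.916 and 11.1 ± 1.33 FPKM gave a log2 difference of 0.07 (95% interval -0.25 to 0.40, limma adjusted p = 0.723). An exon of Nme7 on the opposite strand overlaps Atp1b1, and Nme7 itself stood at 7.57 ± 2.46 and 12.2 ± 2.96 FPKM (limma adjusted p = 0.0507).

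KO pool 2 was the extreme pool for the 5 genes that passed: Id2, Dab2, Gata2 and Gata3 were highest in it, and Tead4 was lowest. The same pool was the highest for 67.2% of the 1933 genes called higher and the lowest for 61.4% of the 2249 called lower. Without it Id2, Dab2 and Gata2 kept their calls (log2 differences 1.01, 0.76 and 0.86, limma adjusted p = 0.0264, 0.0143 and 0.00339). Of 18 markers of cumulus and granulosa cells, the somatic cells around the oocyte, 9 had a row. Of these, Cyp19a1, Hsd3b1, Cyp11a1 and Star had their highest level of all 8 pools in KO pool 2, and Amhr2 and Nr5a2 their lowest. Inha was highest in KO pool 4, at 16.0 FPKM against 9.18 FPKM in KO pool 2. Kitl was highest in KO pool 3 and Tnfaip6 in WT pool 2. The summed level of the 9 was 49.96 to 57.1 FPKM in WT and 50.4, 116, 49.0 and 80.7 FPKM in KO pools 1 to 4. The largest parts of the sum were Amhr2 and Nr5a2 in WT (means 22.9 and 18.8 FPKM) and Hsd3b1 in KO pool 2. Hsd3b1, an enzyme of steroid synthesis, reached 50.5 FPKM in KO pool 2 and 11.6 FPKM in KO pool 4, against 0.134 to 4.52 FPKM in the other 6 pools. Amh, Fshr and Foxl2 had no row. Of the 9, 1 passed (11.1% called, against 33.6% of all genes tested). This was Cyp19a1, which entered the test only through its Dux KO level. Of the 8 embryo and oocyte genes listed, Btg4, Pou5f1, Obox5 and Zfp352 were highest in KO pool 2. Zfp352 was so only barely, at 71.9 FPKM against 70.8 FPKM in WT pool 2. Zp3 was lowest in KO pool 2, at 63.5 FPKM against 94.6 to 217 FPKM in the other 7 pools. Among the 8, Btg4 rose and Zp3, Padi6 and Dppa3 fell (50% called, against 33.6% of all genes tested). How many of all genes tested were highest in KO pool 2 was not counted. The part of cumulus and granulosa cells in the values of KO pool 2 was not tested. With both KO pools 1 and 2 left out, the call of Gata2 held (limma adjusted p = 0.0210), and those of Id2, Dab2, Gata3 and Tead4 ended (0.0938, 0.0580, 0.265 and 0.283), with log2 differences of 0.99, 0.77, 0.35 and -0.46; 6.48% of all genes passed then.

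Genes whose levels ran most like each member across the 8 pools were found by the Euclidean distance of log2(FPKM + 1), centred per gene, among 9546 named genes whose mean reached 1 FPKM; Gata2, below that, was left out. The nearest to Id2 were Scd2, a fatty acid desaturase, and Bmp15, an oocyte growth factor (distances 0.57 and 0.57). Bmp15 stood at 110.2 ± 27.7 FPKM in the WT pools and 283 ± 98.2 FPKM in Dux KO, and like Id2 it was highest in KO pool 2 and lowest in WT pool 4. Nearest to Dab2 were Shisa5 and Il7 (0.24 and 0.26), to Gata3 Vdac2, a channel of the outer mitochondrial membrane, and Lcmt1 (0.17 and 0.17), and to Tead4 Lap3 and Eipr1 (0.36 and 0.36). Krt18 lay farther from its nearest, Calb1, a calcium-binding protein, and Gstm7 (0.63 and 0.79). Calb1 reached 17.0 and 18.0 FPKM in KO pools 1 and 2, against 2.55 to 6.60 FPKM in the other 6 pools. For Atp1b1 the nearest were Hectd4 and Atpaf1 (0.16 and 0.20).

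The genes around the members were read from 9 lists. Of 50 other trophectoderm genes 37 had a row and 32 were tested; 6 rose, 2 fell and 24 did not pass (25% called, against 33.6% of all genes tested), with a median log2 difference of 0.24 against -0.02 over all genes tested. Those that rose include Cldn7, a claudin, from 11.1 ± 2.40 to 18.0 ± 1.82 FPKM (limma adjusted p = 0.0153), and Ezr, the membrane linker ezrin, from 0.921 ± 0.284 to 2.01 ± 0.457 FPKM (limma adjusted p = 0.0150). Klf6, a zinc finger factor, rose from 0.415 ± 0.344 to 2.06 ± 1.62 FPKM, with 4.49 FPKM in KO pool 2 and 1.08 to 1.35 FPKM in the other KO pools, and its call ended without WT pool 4 (limma adjusted p = 0.0578). Arid3a, a DNA-binding protein, rose from 0.478 ± 0.182 to 0.937 ± 0.128 FPKM (limma adjusted p = 0.0327), a call that ended without WT pool 1 or 4 or KO pool 1 or 2 (0.0566 to 0.0970), with quantile normalization (0.0856) and without trend and robust moderation (0.0523). The WT means of Klf6 and Arid3a lie under the 0.5 FPKM minimum, so both entered the test only through their Dux KO levels. Named after their values were seen, Cdh1 and Ocln were the other 2 that rose (limma adjusted p = 0.0369 and 0.0491). For each of them the KO and WT pools overlapped. Tfap2c, a transcription factor of trophoblast that is also inherited from the oocyte, fell from 12.0 ± 2.00 to 7.08 ± 1.24 FPKM (log2 difference -0.69, limma adjusted p = 0.0144). Epcam, an adhesion protein, fell from 132 ± 11.4 to 90.4 ± 19.5 FPKM (limma adjusted p = 0.0297), a call that ended with quantile normalization (0.188) and without WT pool 1, 2 or 4 (0.0627, 0.0592 and 0.0784). Cldn7, Cdh1 and Epcam are also on the list of oviduct epithelium markers.

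Of the Hippo pathway and the partners of TEAD4, 26 of 35 genes had a row, and of 24 tested 2 rose and 2 fell (16.7% called, against 33.6% of all genes; median log2 difference 0.20). The 2 Hippo kinases, near relatives, moved in opposite directions. Stk3 (MST2) rose from 6.78 ± 0.920 to 11.1 ± 2.27 FPKM (log2 difference 0.63, limma adjusted p = 0.0202), and Stk4 (MST1) fell from 17.8 ± 3.34 to 10.6 ± 2.08 FPKM (log2 difference -0.69, limma adjusted p = 0.0167). Wwc2, which helps to activate the Hippo kinases, rose by 0.54 on the log2 scale (limma adjusted p = 0.0221). Wwtr1, which encodes TAZ, fell from 16.3 ± 2.58 to 10.6 ± 1.66 FPKM (log2 difference -0.57, limma adjusted p = 0.0252), as Tead4 did. The call of Stk3 ended without WT pool 4 or KO pool 1 (limma adjusted p = 0.0588 and 0.0528), that of Wwc2 without WT pool 1 or 4 or KO pool 1 (0.0508, 0.0548 and 0.0616), and that of Wwtr1 without WT pool 2, 3 or 4 or KO pool 2 or 4 (0.0518 to 0.0626). Named after their values were seen, Yap1 stood at 15.6 ± 1.41 and 21.7 ± 4.72 FPKM (limma adjusted p = 0.0720), Tead1 at 0.969 ± 0.362 and 0.708 ± 0.152 FPKM and Tead2 at 1.26 ± 0.573 and 1.79 ± 0.249 FPKM, none of them passing. Tead4 was thus the most abundant of the TEAD genes with a row in both groups.

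Among apical-basal polarity genes, 7 of 29 tested rose and 2 fell (31.0% called, near the 33.6% of all genes; median log2 difference 0.24). Pard6g, of the PAR6 scaffolds that bind atypical protein kinase C, rose from 1.98 ± 0.622 to 4.72 ± 0.701 FPKM (log2 difference 0.96, limma adjusted p = 0.00523). Its relative Pard6b rose by 0.70 (limma adjusted p = 0.0266; 0.0570 to 0.0658 without WT pool 2 or 4 or KO pool 1 or 2), and Dlg1, a basolateral scaffold, by 0.62 (0.0177, and 0.0543 without WT pool 4). The 2 that fell were far more abundant. Crb3, an apical membrane protein, fell from 144 ± 14.5 to 91.9 ± 15.7 FPKM (log2 difference -0.66, limma adjusted p = 0.0125), and Cdc42, a small GTPase, from 266 ± 30.1 to 188 ± 12.8 FPKM (limma adjusted p = 0.0221). The calls of Crb3 and Cdc42 ended with quantile normalization (limma adjusted p = 0.0610 and 0.117), and that of Cdc42 without WT pool 1 or 4 or KO pool 1 (0.0616, 0.0707 and 0.0574).

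**Figure D4:**
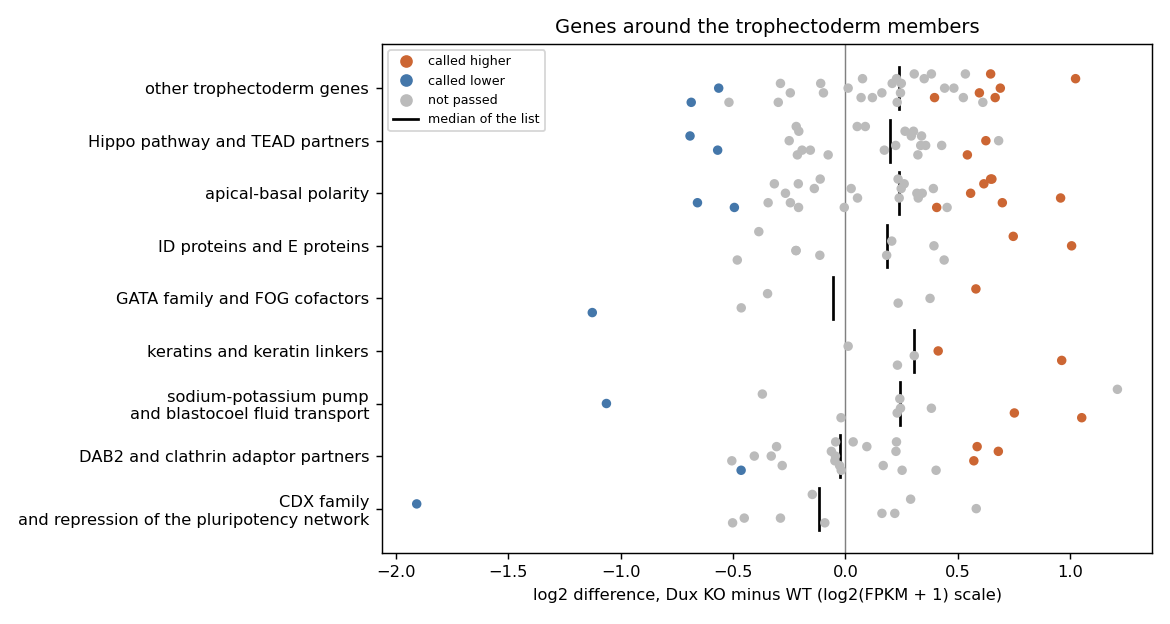
Log2 difference between Dux KO and WT on the log2(FPKM + 1) scale of each tested gene of the 9 lists, coloured by its call, with the median of each list as a black line. Called genes lie on both sides of 0 in 6 of the 9 lists, with medians from -0.12 to 0.31.

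Of the genes around ID2, 2 of 11 tested rose and none fell (18.2% called, against 33.6% of all genes, with a median log2 difference of 0.18). Id3, a second ID protein, rose from 5.45 ± 1.62 to 11.9 ± 2.84 FPKM, without overlap (log2 difference 1.01, limma adjusted p = 0.00923), and Smad1, which carries BMP signals that induce ID genes in many cells, from 0.931 ± 0.106 to 2.25 ± 0.288 FPKM (log2 difference 0.75, limma adjusted p = 0.00405). Id1, chosen after its values were seen, stood at 10.3 ± 1.86 and 9.15 ± 4.09 FPKM and did not pass (limma adjusted p = 0.497). Within the GATA family and its cofactors 1 of 6 tested rose and 1 fell (33.3% called, near the 33.6% of all genes, with a median log2 difference of -0.06). Gata1, the family member best known from red blood cells, fell from 47.3 ± 18.8 to 20.3 ± 4.72 FPKM without overlap (log2 difference -1.13, limma adjusted p = 0.0107), against the direction of Gata2 and Gata3. In WT it stood far above them, at 27.4 to 71.7 FPKM. Ldb1, a cofactor of GATA factors, rose by 0.58 (limma adjusted p = 0.0362), a call lost on leaving out 5 of the 8 pools in turn (WT pools 1, 2 and 4 and KO pools 1 and 4, 0.0568 to 0.0994) and with quantile normalization (0.0776).

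Keratins and their linkers were thinly covered, with 6 of 19 in the table and 5 tested, of which 2 rose. This is 40% called, against 33.6% of all genes, with a median log2 difference of 0.31. Krt12, known as a keratin of the cornea, rose from 4.76 ± 1.83 to 10.2 ± 3.52 FPKM (limma adjusted p = 0.0215; 0.0501 to 0.0560 without WT pool 3 or 4 or KO pool 2), and Krt222 from 0.392 ± 0.0856 to 0.870 ± 0.312 FPKM (limma adjusted p = 0.0378). Krt222, whose WT mean is under the 0.5 FPKM minimum, entered the test only through its Dux KO level. The call of Krt222 ended without any 1 of WT pools 1, 3 and 4 and KO pools 2, 3 and 4 (limma adjusted p = 0.0605 to 0.0836), with quantile normalization (0.117), without trend and robust moderation (0.0594) and in the authors' deposited table (0.0524). Krt12 lay above the WT range of 2.56 to 6.45 FPKM in every KO pool (8.67, 15.0, 10.2 and 6.78 FPKM), where Krt18 did so in 2 of them. Of the pump and fluid transport genes 2 of 10 tested rose (15.5% of all genes did; median log2 difference 0.24). Fxyd5, a regulator of the pump, rose from 1.02 ± 0.207 to 3.21 ± 0.595 FPKM (log2 difference 1.05, limma adjusted p = 0.00244), and Fxyd6, of the same family, by 0.75 (limma adjusted p = 0.0158). The abundant beta subunit in these embryos was Atp1b3, chosen after its values were seen, at 143 ± 26.6 and 110 ± 20.2 FPKM (limma adjusted p = 0.142).

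Of genes that work with DAB2 in clathrin endocytosis 3 of 22 tested rose and 1 fell (18.2% called, against 33.6% of all genes; median log2 difference -0.02). Epn2, an epsin, rose from 31.4 ± 2.81 to 51.5 ± 9.61 FPKM (log2 difference 0.68, limma adjusted p = 0.0109), and Dab1, the other DAB adaptor, from 1.04 ± 0.281 to 2.06 ± 0.611 FPKM (limma adjusted p = 0.0267; 0.0555 to 0.0788 without WT pool 3 or 4 or KO pool 2). Ap2s1 (limma adjusted p = 0.0332) and the light chain gene Cltb (0.0455), which rose and fell, each lost their calls on leaving out 6 of the 8 pools in turn (0.0513 to 0.0822 and 0.0714 to 0.121), and Cltb also with quantile normalization (0.0868) and median-of-ratios scaling (0.0503). Of the genes known to act with or against Cdx2, 1 of 10 tested fell and none rose (10% called, against 33.6% of all genes, with a median log2 difference of -0.12). Prdm14, a regulator of pluripotency, fell by 1.91 on the log2 scale (limma adjusted p = 0.00428). Of the 34 genes called over the 9 lists, members aside, 4 were called with KO pools 1 and 2 left out, and these were Fxyd5, Krt222, Prdm14 and Smad1. For Krt222 the pools left out were its 2 lowest KO pools, at 0.502 and 0.773 FPKM against 0.963 and 1.24 FPKM. They were also the 2 lowest KO pools of Fxyd5, at 2.89 and 2.53 FPKM against 3.60 and 3.80 FPKM. The calls of Krt222 and Fxyd5 in that fit thus say little of how firm they are.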

How the data were processed

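The authors deposited FPKM per gene, and per the submitters' processing notes used Trimmomatic 0.32, STAR 2.6.1a and SAMtools 1.7 with GRCm38 (mm10). Which counter, annotation and strand setting they used is not given in the sources used here. The deposited table's mean count is read as a mean signal, the counts divided by size factors; the deposited FPM is the signal of repeats. With that mean, each library's FPKM became whole multiples of 1 step (100% within 0.05, up to 500 reads), which gave reads per gene. The deposited log2 fold changes and p-values of the authors served as an alternative.

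Genes averaging 0.5 FPKM or more were tested with limma 3.58.1 (R 4.3.3; variance trend, robust moderation) on log2(FPKM + 1), all 8 samples, no covariate, two-sided. The recovered reads were tested with DESeq2 1.42.0 and with edgeR 4.0.16's quasi-likelihood test. Both were chosen after seeing the data, as were fits lacking KO pools 1 and 2, or 3 and 4. The fitting functions were tested on simulated data. Replicates of a group differed beyond sampling noise (chi-square per degree of freedom 13.8 to 117).

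Members and lists were chosen with earlier results of these data known. From each list at most 4 genes called in each direction, by adjusted p, were named, except that a result withheld for evaluation is not reported here. Annotation was GENCODE M21 and RefSeq (GRCm38.p6). Numeric columns without a sample numbered 0. Markers of blood (1 of 14 in the table, Cd52) and sperm (2 of 12, Odf2 higher and Ldhc lower) were read too.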

Additional observations from a re-analysis of the deposited data

How the results depend on the processing

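The 4182 genes called numbered 2527 to 4045 with 1 pool left out (2527 lacking WT pool 4 and 2686 lacking KO pool 1), 4732 with the replicate number as a block, and 800 with KO pools 1 and 2 left out. Of the trophectoderm genes 5 were called; 3 were at a 5 FPKM minimum, where Gata2, Gata3 and Krt18 were not tested, 3 to 4 with 1 pool left out, and 1, Gata2, with KO pools 1 and 2 left out. Of all list genes other than the members the number called was 34, with 22 at the 5 FPKM minimum, 15 to 33 with 1 pool left out (15 lacking WT pool 4 and 22 lacking KO pool 2) and 4 lacking KO pools 1 and 2. Krt18 turned to -0.22 without those 2 pools. In the 20 alternatives Gata2 and Atp1b1 kept their direction and their side of the threshold wherever they had a value, Id2 and Dab2 in 19, Tead4 in 13 and Gata3 in 11 of 19. With KO pools 3 and 4 left out instead, 3934 genes, 6 trophectoderm genes and 34 list genes were called. Krt18, by whose level the pools were split, is among those 6. Fewer samples and fewer genes enter where pools or low genes are left out. The cause of the changes was not tested. After the mean of its own group was taken from each gene, same-numbered pools correlated at -0.12, 0.33, -0.06 and 0.30. These are correlations of deviations from the group means, not of levels. Only KO pools 2 and 4 correlated best with the WT pool of their own number. The labels state no pairing, and so few correlations cannot decide if the replicate numbers pair the samples. The block changed no call of the 7 genes. Gata2 at 15 to 21 reads per WT pool is the value that depth limits most.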
